A study of Mus musculus with 9 samples.

Results

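Oxidative phosphorylation is the last stage of respiration, carried out by 5 protein complexes in the inner membrane of the mitochondrion, and its nuclear-encoded subunit genes were followed here in the brains of obese ob/ob mice. The genes were taken by symbol, as those beginning with Nduf, Uqcr or Atp5, those from Cox4 to Cox8, and Sdha to Sdhd, with the brightest probe set standing for a gene. This gave 93 genes of the 19505 named on the array, each with 1 probe set. Of these, 84 encode structural subunits, with 37 in complex I, 4 in complex II, 8 in complex III, 18 in complex IV and 17 in complex V. The other 9 are the complex I assembly factors Ndufaf1 to Ndufaf8 and Ndufa4l2, a relative of Ndufa4. The subunits encoded by mitochondrial DNA are not analysed here. Ndufa4 carries a complex I name and is counted there, although its protein is a subunit of complex IV, and Ndufb4b is a near-identical copy of Ndufb4, so that the signals of that pair are uncertain.

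Male mice that were 6 weeks old on arrival were kept on standard chow for a week of acclimatization and then for the 6 weeks (42 days) of treatment, and total RNA of brain was measured on Clariom S Mouse arrays. The wild type group was C57BL/6JHamSlc-+/+ given vehicle. Obese C57BL/6JHamSlc-ob/ob mice, which lack functional leptin in every tissue, received either vehicle or an extract of Vigna umbellata (VE) at 100 mg/kg body weight by oral gavage. Each group had 3 arrays, labelled as replicates without saying whether they came from separate animals, so the p-values measure the spread between these samples. The design text names WAT and a lower dose as well, whereas the labels of all 9 arrays say brain and the higher dose. The arrays carry brain RNA: all 8 neuron markers and all 8 astrocyte markers lay above the median level of all probe sets, and none of 7 adipocyte markers did.

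Complex I oxidises NADH and passes the electrons to ubiquinone, complex II does the same for succinate, complex III hands them to cytochrome c, and complex IV gives them to oxygen. Complexes I, III and IV pump protons, and complex V, the ATP synthase, lets them flow back to make ATP. Neurons depend heavily on this pathway for the ATP that ion pumping consumes. Many of its nuclear genes carry sites for nuclear respiratory factor 1 (NRF1), for the ETS protein GABP, also called nuclear respiratory factor 2, or for YY1.

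The letters of those sites were searched in the bases just before the gene starts. RefSeq start sites on GRCm38.p6 were found for 70 of the 84 subunits, and 250 bases before each were read on both strands. The NRF1 core GCGCANGCG stood before 14 of the 70 subunits, against 8.43% of 15691 genes of the array with a start site. By complex it stood before 6 of 34 genes of complex I, 2 of 3 of complex II, 0 of 5 of complex III, 1 of 13 of complex IV and 5 of 15 of complex V. The ETS core CCGGAAG stood before 12 of the 70, against 10.5% of all genes. The YY1 core AAGATGGC stood before 1, Atp5j, against 1.78% of all genes. The NRF1 core is its own reverse complement in part, so that overlapping matches were counted as 1 gene. Ndufs7, Ndufb2 and Ndufa10, which had the largest negative ob/ob differences of complex I, hold none of the 3 cores in this window. At least 1 of the NRF1 and ETS cores stood before 22 of the 70 subunits, against 17.5% of all genes. Both stood before 4 of the 70, against 1.43% of all genes. These 4 are shown because they hold both cores. For each core, 30 bases around the match nearest the start site are given. They run 5′ to 3′ on the gene's strand, with the matching letters in capitals.
Sdhd NRF1 core, chr9:50603910-50603939, minus strand: ttcgctggggtGCGCACGCGcggtggcagc
Sdhd ETS core, chr9:50603878-50603907, minus strand: accgtctcctgcCTTCCGGttcacgcttca
Cox6a1 NRF1 core, chr5:115349057-115349086, minus strand: acggataaagtGCGCAGGCGctggagttcc
Cox6a1 ETS core, chr5:115348959-115348988, minus strand: cgtccccatttccgCTTCCGGcgcgccggt
Atp5h NRF1 core, chr11:115420042-115420071, minus strand: ggaccccgacgGCGCAGGCGccgcgcccgc
Atp5h ETS core, chr11:115419940-115419969, minus strand: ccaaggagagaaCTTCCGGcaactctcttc
Atp5l NRF1 core, chr9:44920963-44920992, minus strand: aaccaataaCGCATGCGCatttcccccact
Atp5l ETS core, chr9:44920937-44920966, minus strand: cacttcaccgatCTTCCGGaccaacatgaa
The ETS matches read CTTCCGG because they lie on the opposite strand to the gene. The distance to the start site ranged from 9 bases for the ETS core of Cox6a1 to 232 bases for the NRF1 core of Atp5l. In ob/ob vehicle brain all 4 genes had negative log2 differences from wild type as deposited, of -0.80 for Sdhd, -0.70 for Cox6a1, -0.25 for Atp5h and -0.74 for Atp5l, as did 80 of the 84 subunits. After quantile normalization they were -0.61, -0.25, 0.16 and -0.47 in the same order. A match of letters is a description of the sequence and does not show that the factor binds there. Whether the cores bear on the ob/ob differences was not tested.

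The arrays themselves differed in how far they spread bright from dim signals, which matters for a gene set as bright as this one. Of the 84 subunits, 33 lay in the brightest of 20 bins of mean log2 signal. The second VE array stood apart, with a highest signal of 16.37 against 19.01 to 19.93 on the other 8 arrays, an SD over probe sets of 2.38 against 2.56 to 2.84, and correlations with the other arrays of 0.962 to 0.970. None of the 84 subunits was above 16 on it, against 8 or 9 subunits on every other array. For that reason each subunit was also set against the median of all probe sets in its own bin (probe sets of like level) and tested again after quantile normalization, which gives every array the same spread, and the results that rest on the second VE array are given without it as well. Markers of brain cell types were lower in ob/ob vehicle brain too. The median log2 difference from wild type was -0.65 over 8 neuron markers, -0.74 over 8 astrocyte markers, -1.16 over 7 oligodendrocyte markers, -0.61 over 7 microglia markers, -0.26 over 8 endothelial and pericyte markers and -1.74 over 6 choroid plexus markers. Probe sets at the level of these markers had medians of -0.34, -0.30, -0.23, 0.12, -0.01 and -0.15 in the same order. After quantile normalization the marker medians were -0.36, -0.50, -0.88, -0.56, -0.20 and -1.47 in the same order. The summed neuron marker level was 20.08 to 20.41 on the wild type arrays, 19.07 to 20.07 on the ob/ob vehicle arrays and 16.92 to 20.13 on the VE arrays. Their part in the subunit values was not tested, and in bulk tissue fewer cells of a type and less RNA per cell cannot be told apart.

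**Figure D1:**
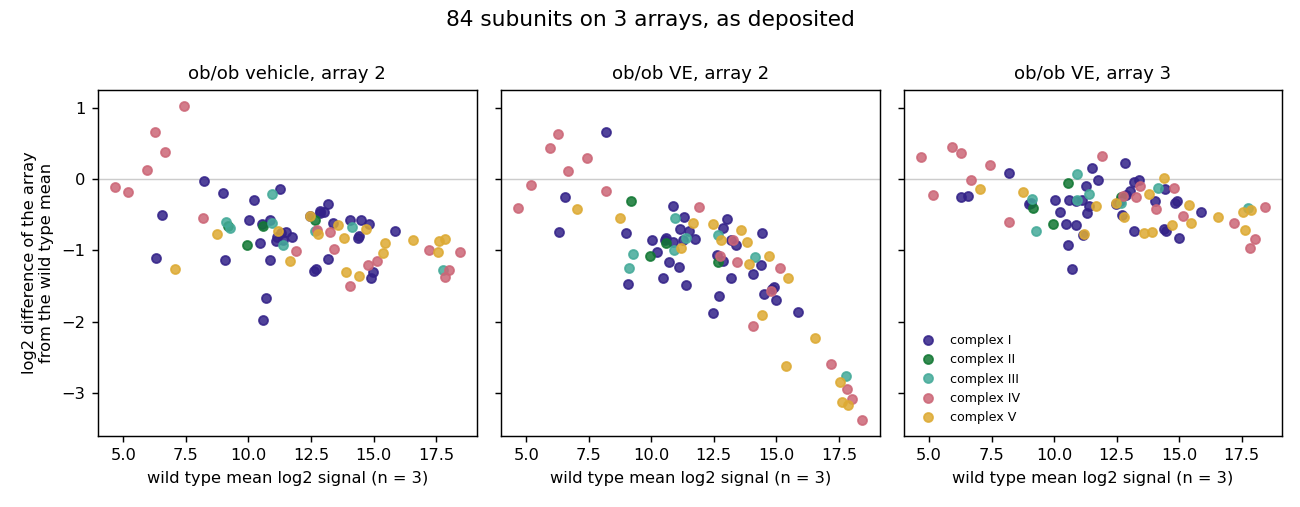
Difference of each of the 84 subunits (points, coloured by complex) from its wild type mean (log2, vertical axis) against that mean (log2 signal, n = 3, horizontal axis) on the second ob/ob vehicle array, the second VE array and VE array 3, as deposited. On the second VE array the difference grew with the signal, and no subunit there was above 16, whereas the points of VE array 3 form a flatter band.

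The first comparison, ob/ob vehicle against wild type vehicle, asks how the subunit genes differ in the obese brain. Most subunits had lower values in ob/ob brain, across all 5 complexes, but 1 of 84 passed the test: Ndufs7, a complex I core subunit that carries an iron-sulfur cluster next to the ubiquinone site, fell. Over the 84 subunits the median log2 difference was -0.52, and 80 of the 84 differences were negative. The median was -0.49 in complex I, -0.63 in complex II, -0.52 in complex III, -0.44 in complex IV and -0.63 in complex V, against 0.02 over all 22206 probe sets. Part of this was shared with other bright probe sets, whose median at like level was -0.31; 75 of the 84 subunits lay below that of their own bin. After quantile normalization the subunit median was -0.24 and 74 of 84 differences were negative.

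The 3 ob/ob arrays did not lie equally low. The median difference of the subunits from the wild type mean was -0.31, -0.76 and -0.45 on the ob/ob vehicle arrays, against -0.04, 0.08 and -0.03 on the wild type arrays. All 3 ob/ob arrays therefore lay under all 3 wild type arrays, the second one furthest. At like level, other probe sets stood at -0.13, -0.46 and -0.28 on the same ob/ob arrays. After quantile normalization the ob/ob arrays stood at -0.20, -0.31 and -0.17 and the wild type arrays at -0.07, 0.07 and 0.03, so the groups still did not overlap.

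**Figure D2:**
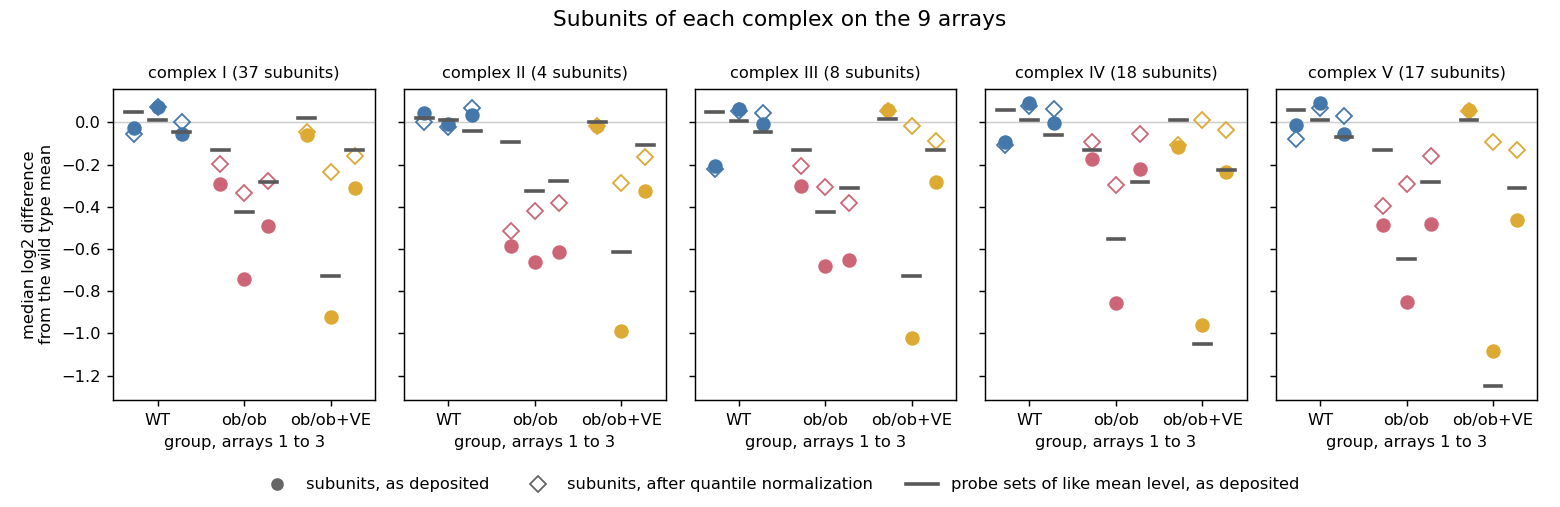
Median log2 difference from the wild type mean (vertical axis) of the subunits of complexes I to V on each of the 9 arrays (3 per group, horizontal axis), as deposited (filled) and after quantile normalization (open), with grey bars for probe sets of like mean level as deposited. In the deposited values the ob/ob vehicle arrays lie below the wild type arrays in every complex, and the second VE array lies lowest in every complex; after quantile normalization the groups overlap in complexes III and IV.

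Counting genes gave the same direction. In 57 of the 84 subunits every ob/ob vehicle array was below every wild type array, against 17.5% of all probe sets and 35.9% of probe sets at like level. By complex this held for 23 of 37 subunits in complex I, 3 of 4 in complex II, 8 of 8 in complex III, 8 of 18 in complex IV and 15 of 17 in complex V. After quantile normalization it held for 30 of 84, against 15.1% of all probe sets and 17.2% at like level, with 11, 3, 4, 3 and 9 subunits in complexes I to V. The 3 of 18 in complex IV were close to these background shares. Every ob/ob array was above every wild type array for 1 subunit, Cox8c, against 15.8% of all probe sets. At an unadjusted limma p under 0.05, 32 of 84 subunits were lower, against 10.2% of all probe sets and 18.4% at like level.

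The test adjusted over all probe sets called far fewer. At a Benjamini-Hochberg adjusted p under 0.05 in limma, 1 of 84 subunits was lower, against 0.730% of all probe sets, and 0 of 84 were higher, against 0.536%; the share of subunits is thus close to the background. After quantile normalization 5 subunits were lower, against 1.13% of all probe sets, namely Ndufs7, Ndufb2, Ndufa10, Ndufv3 and Atp5k, and 1 was higher, Cox8c, against 1.72%. Removal of the level trend, a fit of each array's deviation on mean signal, also called 5 subunits lower, against 1.37% of all probe sets. Without the second VE array 29 of 84 subunits were called in this comparison, 28 of them lower, because that array enters the shared estimate of the spread, and 13.4% of all probe sets were then called.

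**Figure D3:**
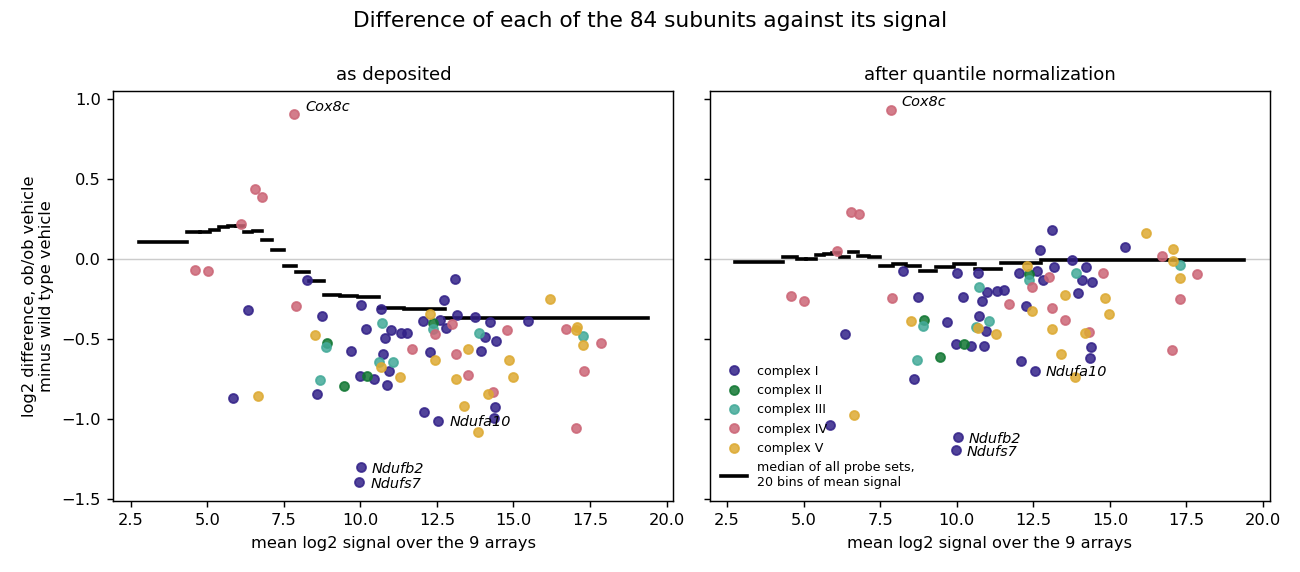
Log2 difference between ob/ob vehicle and wild type vehicle (vertical axis) of the 84 subunits, coloured by complex, against their mean log2 signal over the 9 arrays (horizontal axis), as deposited (left) and after quantile normalization (right), with black bars for the median of all probe sets in 20 bins of mean signal. As deposited the bars lie above 0 in the dimmer bins, from 0.107 in the dimmest to 0.21 at their highest, and sink to -0.37 in the brightest, and most subunits lie under them; after quantile normalization the bars lie near 0 and 74 of the 84 subunits remain negative.

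In complex I, the core subunits hold the flavin and the iron-sulfur clusters, and the many accessory subunits surround them. Ndufs7 read 11.00, 10.46 and 10.66 in wild type brain, 9.49, 9.04 and 9.40 in ob/ob vehicle brain, and 10.68, 9.55 and 9.45 in VE brain, in log2 signal. All ob/ob vehicle arrays lay well below the lowest wild type array, and the first VE array lay within the wild type range. The ob/ob difference was -1.40 (SE 0.304, limma adjusted p = 0.0463), and -1.20 after quantile normalization (adjusted p = 0.0264). The call ended when any 1 of the 3 wild type arrays, any 1 of the 3 ob/ob vehicle arrays or VE array 3 was left out, with differences of -1.25 to -1.52 and adjusted p-values of 0.0531 to 0.203. This loss was not particular to Ndufs7. Of all 22206 probe sets, 0 were called without wild type array 2 or 3 or ob/ob vehicle array 2 or 3. Without the first wild type array 20 were called, without the first ob/ob vehicle array 21, and without VE array 3 98.

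Ndufb2, an accessory subunit of the membrane arm, read 10.47, 10.87 and 10.45 in wild type brain and 9.95, 8.62 and 9.31 in ob/ob vehicle brain, again with no overlap. Its difference of -1.30 (SE 0.311) missed the threshold as deposited (limma adjusted p = 0.0592) and passed it after quantile normalization at -1.12 (adjusted p = 0.0385). Ndufa10, another accessory subunit, read 13.24, 13.26 and 13.06 in wild type, 12.46, 12.07 and 11.99 in ob/ob vehicle and 12.61, 11.80 and 12.46 in VE brain. Both obese groups lay below all wild type arrays. Its difference was -1.01 (SE 0.240, limma adjusted p = 0.0585) as deposited and -0.70 (adjusted p = 0.0412) after quantile normalization. Ndufv3, a dim accessory subunit of the NADH-binding module, read 6.00, 6.49 and 6.39 in wild type against 5.70, 5.19 and 5.38 in ob/ob vehicle brain, without overlap. Its difference was -0.87 as deposited (limma adjusted p = 0.0704) and -1.04 after quantile normalization (adjusted p = 0.0284).

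The core subunits of complex I were uneven. Besides Ndufs7, Ndufs8, which holds a pair of iron-sulfur clusters, read 11.38, 11.33 and 11.19 in wild type and 10.73, 10.54 and 10.53 in ob/ob vehicle brain, a difference of -0.70 (SE 0.20, limma adjusted p = 0.0891). Ndufs1, the largest core subunit, differed by -0.46, Ndufv2 by -0.38 and Ndufs3 by -0.35. Ndufv1, which binds NADH and the flavin, read 13.37, 13.13 and 13.03 in wild type and 13.20, 12.83 and 13.13 in ob/ob vehicle brain, so that its groups overlapped. Its difference of -0.12 (SE 0.30) turned to 0.19 after quantile normalization. All 37 complex I differences were negative as deposited, from -1.40 for Ndufs7 to -0.12 for Ndufv1, and 34 of 37 were negative after quantile normalization. Ndufa4 differed by -0.39 as deposited and by 0.08 after quantile normalization.

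Complex II, succinate dehydrogenase, links the tricarboxylic acid cycle to the chain. Its flavoprotein Sdha read 10.74, 10.35 and 10.62 in wild type, 9.95, 9.91 and 9.65 in ob/ob vehicle and 10.62, 9.68 and 10.52 in VE brain. The ob/ob vehicle arrays lay below all wild type arrays, while VE arrays 1 and 3 lay within the wild type range. Its difference was -0.73 (SE 0.255, limma adjusted p = 0.142). Sdhd, a membrane anchor, read 9.75, 10.03 and 10.05 against 9.27, 9.02 and 9.15, a difference of -0.80 (SE 0.236, limma adjusted p = 0.0968). Sdhc, the other anchor, differed by -0.53 without overlap, and the iron-sulfur subunit Sdhb by -0.40 with overlap.

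Complex III was the complex in which all 8 subunits separated the groups. Its core protein Uqcrc2 read 8.86, 9.17 and 9.31 in wild type, 8.23, 8.51 and 8.33 in ob/ob vehicle and 9.13, 7.86 and 8.84 in VE brain. The ob/ob vehicle arrays were all lower than the wild type arrays, VE arrays 1 and 3 lay above all ob/ob vehicle arrays, and the second VE array lay below every other array. Its difference was -0.76 (SE 0.290, limma adjusted p = 0.172). The other core protein Uqcrc1 differed by -0.64, the small subunit Uqcr10 by -0.65 and the Rieske iron-sulfur protein Uqcrfs1 by -0.40. Uqcrb, which helps to form the quinone site, was the brightest of the 8 and read 17.78, 17.75 and 17.77 in wild type and 17.72, 16.49 and 17.65 in ob/ob vehicle brain. The gap to wild type was narrow on ob/ob arrays 1 and 3. After quantile normalization 4 of the 8 still separated the groups.

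Complex IV, cytochrome c oxidase, was the complex whose members differed in sign. It holds 10 generally expressed subunits, 7 isoforms known from particular tissues, and Cox7a2l, which takes part in joining complexes III and IV. The median difference was -0.56 over the general subunits, all 10 of them negative, and 0.22 over the restricted isoforms, 3 of 7 of them negative; after quantile normalization the medians were -0.21 and 0.05. The restricted isoforms are the dimmer genes, and probe sets at their level had a median of 0.17 as deposited, against -0.37 at the level of the general subunits. Cox8a, the general form of the smallest subunit, read 17.96, 17.59 and 17.97 in wild type, 16.86, 16.46 and 17.03 in ob/ob vehicle and 17.61, 14.90 and 16.87 in VE brain. The ob/ob vehicle arrays lay below all wild type arrays and the second VE array far below every other. Its difference was -1.06 (SE 0.495, limma adjusted p = 0.254), and in the fit without the second VE array the adjusted p was 0.00854.

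Cox8c, an isoform of the same subunit known from testis, went the other way. It read 7.21, 7.54 and 7.54 in wild type, 7.93, 8.46 and 8.62 in ob/ob vehicle and 7.99, 7.72 and 7.62 in VE brain. Every ob/ob array of either treatment was above every wild type array, and the ob/ob vehicle arrays included the highest. Its difference was 0.91 (SE 0.228, limma adjusted p = 0.0665) as deposited and 0.94 (adjusted p = 0.0426) after quantile normalization. Cox7a1, known from heart and skeletal muscle, differed by 0.39 and Cox7b2 by 0.44, both with overlapping groups and adjusted p-values of 0.326 and 0.261. Their partners Cox7a2 and Cox7b differed by -0.41 and -0.83. Cox4i1, the general form of the subunit where ATP regulates the enzyme, differed by -0.60 and its isoform Cox4i2 by 0.22. Cox6a2 differed by -0.29, Cox8b by -0.07 and Cox6b2 by -0.07, and both Cox8b and Cox6b2 changed sign when single arrays were left out.

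**Figure D4:**
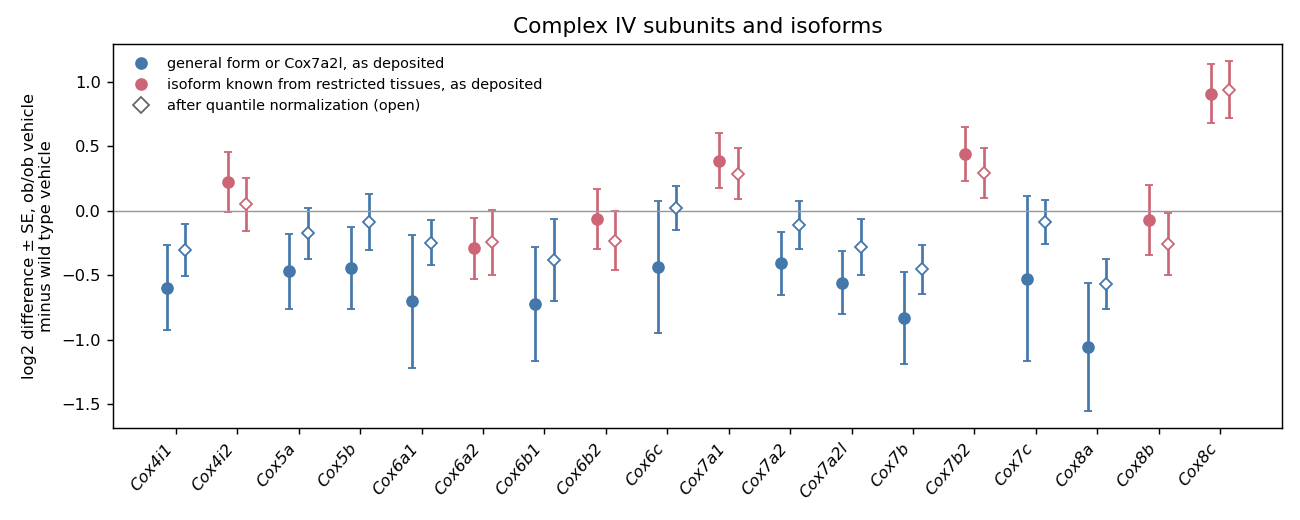
Log2 difference ± SE between ob/ob vehicle and wild type vehicle (vertical axis, n = 3 per group) of the 18 complex IV subunits (horizontal axis), filled as deposited and open after quantile normalization, in blue for general forms and Cox7a2l and in red for isoforms known from restricted tissues. The general forms lie below 0 as deposited, with Cox6c just above 0 after quantile normalization, and Cox8c lies highest at 0.91 and 0.94.

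In complex V, the F1 head makes ATP, the c-ring turns in the membrane, and a peripheral stalk holds the head still. The 3 genes for the c-ring protein encode the same mature subunit. Atp5g2 read 14.75, 14.71 and 14.65 in wild type, 13.65, 14.00 and 13.93 in ob/ob vehicle and 14.22, 13.62 and 14.06 in VE brain, with both obese groups below all wild type arrays. Its difference was -0.84 (SE 0.211, limma adjusted p = 0.0660). Atp5g1 read 11.14, 11.21 and 11.19 in wild type, 10.41, 10.45 and 10.65 in ob/ob vehicle and 10.50, 10.21 and 10.41 in VE brain, again with both obese groups below, and differed by -0.68 (SE 0.187, limma adjusted p = 0.0831). Atp5g3 differed by -0.56 (SE 0.253, limma adjusted p = 0.237).

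In the F1 head, Atp5d, the delta subunit of the central stalk, read 13.70, 13.59 and 13.44 in wild type and 12.74, 12.93 and 12.80 in ob/ob vehicle brain. The groups did not overlap, and the difference was -0.75 (SE 0.191, limma adjusted p = 0.0677). Atp5c1, the gamma subunit that turns in the head, differed by -0.74. The catalytic subunit Atp5b differed by -0.42 (SE 0.576) and the alpha subunit Atp5a1 by -0.44 (SE 0.551), both among the brightest genes, and after quantile normalization they differed by 0.06 and -0.02. Among the small membrane subunits, Atp5mpl read 14.49, 14.25 and 14.50 in wild type, 13.53, 13.05 and 13.41 in ob/ob vehicle and 14.47, 12.51 and 14.43 in VE brain. Its difference was -1.08 (SE 0.410, limma adjusted p = 0.167), and VE arrays 1 and 3 lay within the wild type range. Atp5k, the e subunit, which helps ATP synthases to pair, read 6.77, 7.22 and 7.14 against 6.65, 5.78 and 6.12, a difference of -0.86 as deposited (limma adjusted p = 0.0868) and of -0.98 after quantile normalization (adjusted p = 0.0436).

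**Figure D5:**
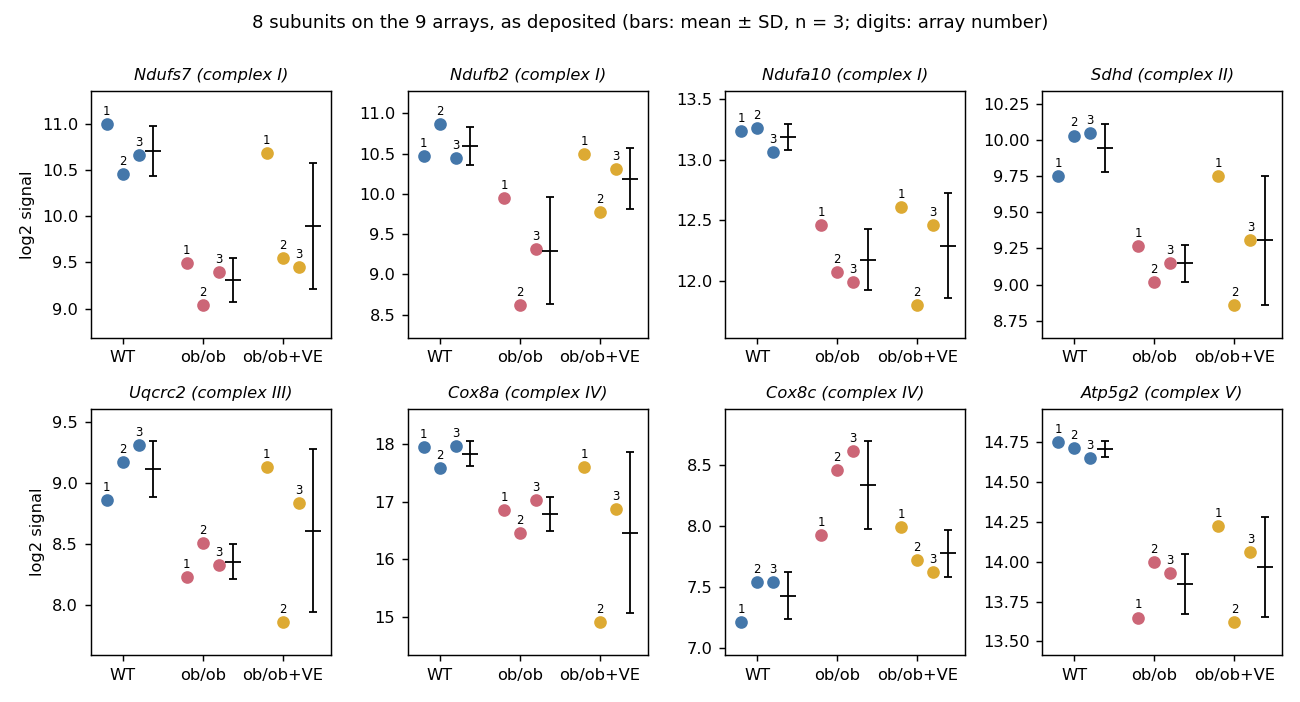
Log2 signal as deposited (vertical axes, each with its own range) of 8 subunits of complexes I to V on the 9 arrays, 3 per group (horizontal axis), with digits for the array number and bars for mean ± SD. In 7 of the 8 every ob/ob vehicle array is below every wild type array and in Cox8c every one is above. The second VE array is the lowest of the 3 VE arrays in 6 of the 8 genes.

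The second comparison, ob/ob VE against ob/ob vehicle, asks whether the extract moved these genes in obese brain; it shares the ob/ob vehicle arrays with the first. No subunit passed the test. In limma 0 of 84 subunits were lower, against 0.473% of all probe sets, and 0 were higher, against 0.0135%; at an unadjusted p under 0.05 with a fold over 1.1, the rule the submitters state, 3 subunits passed, against 13.3% of all probe sets. The median difference was 0.05 over all subunits, 0.07 in complex I, 0.24 in complex II, 0.16 in complex III, -0.19 in complex IV and 0.11 in complex V, against -0.07 over all probe sets. Probe sets at like level had medians of -0.05, -0.03, -0.01, -0.02, -0.17 and -0.20 in the same order. The value of complex IV was thus close to that of other probe sets at its level. After quantile normalization the subunit median was 0.16 over all subunits and turned to 0.08 in complex IV. These medians rested on single arrays: the 3 VE arrays stood at -0.02, -1.01 and -0.33 from the wild type mean, so that the first lay in the wild type range, array 3 in the ob/ob vehicle range and array 2 below both. Without the second VE array the median over all subunits was 0.36, and without the first it was -0.11.

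In 2 of 84 subunits every VE array was above every ob/ob vehicle array, against 4.62% of all probe sets. They were Ndufs8, which read 11.24, 10.77 and 10.83 in VE against 10.73, 10.54 and 10.53 in ob/ob vehicle brain, and the accessory subunit Ndufb8, which read 8.34, 8.86 and 8.29 against 8.19, 8.17 and 7.86. Their differences were 0.35 and 0.42, with limma adjusted p-values of 0.495 and 0.417. Ndufb2 had the largest difference among the subunits: it read 10.49, 9.77 and 10.31 in VE brain, arrays 1 and 3 above all ob/ob vehicle arrays and array 2 below array 1 of them. The difference was 0.90 (SE 0.311, limma adjusted p = 0.223), and 0.56 (adjusted p = 0.576) when the second ob/ob vehicle array was left out. Without the second VE array 1 of 84 subunits was called in this comparison, against 1.81% of all probe sets. It was Atp5mpl, with a difference of 1.12 (SE 0.204, limma adjusted p = 0.0156). Ndufa4l2, which is no structural subunit and is known to be induced by low oxygen, read 6.01, 6.17 and 6.17 in wild type, 5.69, 5.87 and 5.81 in ob/ob vehicle and 6.64, 6.43 and 6.95 in VE brain. Its VE arrays were above all 6 others, including the second VE array, and its difference from ob/ob vehicle was 0.88 (SE 0.199, limma adjusted p = 0.0685). In the fit without the second VE array, which called 1.81% of all probe sets, this difference passed the test, at 1.00 (SE 0.193, limma adjusted p = 0.0181).

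The third comparison, ob/ob VE against wild type vehicle, shares arrays with both others. In limma 0 of 84 subunits were lower, against 0.0991% of all probe sets, and 0 were higher, against 0.00%; 23 subunits were lower by the submitters' stated rule, against 9.21% of all probe sets and 22.1% at like level. The median difference was -0.46 over all subunits, -0.46 in complex I, -0.40 in complex II, -0.39 in complex III, -0.42 in complex IV and -0.64 in complex V, against -0.07 over all probe sets. Much of this was shared with other probe sets at like level. Their medians were -0.325, -0.28, -0.23, -0.28, -0.437 and -0.55 in the same order. The subunit median was smaller without the spread of the second VE array: -0.07 over all subunits after quantile normalization and -0.20 as deposited without that array. Every VE array was below every wild type array for 16 of 84 subunits, against 11.5% of all probe sets and 22.4% at like level. Among these were Ndufa10, Atp5g1 and Atp5g2, whose differences were -0.90, -0.81 and -0.74 with limma adjusted p-values of 0.170, 0.129 and 0.196. A moderated F test over the 3 groups called 0 of 84 subunits, against 1.07% of all probe sets, while 24 passed it at an unadjusted p under 0.05 with a fold over 1.1, against 19.0% of all probe sets and 23.7% at like level.

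The assembly factors help to put complex I together and are not part of the finished enzyme. The median ob/ob vehicle difference over Ndufaf1 to Ndufaf8 was -0.24, with all 8 negative as deposited and 6 of 8 after quantile normalization, and none passed the test. Probe sets at their level had a median of -0.15 as deposited, and 5 of the 8 lay below that of their own bin. After quantile normalization the medians were -0.21 over the 8 and -0.03 at like level. Ndufaf6, needed for an early step of assembly, was the lowest at -0.50 (SE 0.242, limma adjusted p = 0.266). Of 31 measured assembly factors of complexes II to V, 1 fell in limma, against 0.730% of all probe sets, and 11 had every ob/ob vehicle array below every wild type array, against 17.5% of all probe sets and 23.0% at like level, with a median of -0.18. The 1 was Cox15, which makes heme A for complex IV: it read 7.83, 8.25 and 8.19 in wild type, 7.06, 7.03 and 6.73 in ob/ob vehicle and 7.60, 7.07 and 7.86 in VE brain. The ob/ob vehicle arrays all lay below the wild type arrays, by -1.15 (SE 0.237, limma adjusted p = 0.0415). Of 10 measured complex I assembly factors outside the Nduf names, 1 fell, against the same 0.730%: Tmem126b, of the complex that assembles the membrane arm, with 8.86, 9.07 and 9.16 in wild type and 8.23, 7.85 and 7.50 in ob/ob vehicle brain (difference -1.17, SE 0.219, limma adjusted p = 0.0366). Both calls ended when any 1 wild type or ob/ob vehicle array or VE array 3 was left out, with adjusted p-values of up to 0.203 for Cox15 and 0.186 for Tmem126b. Those fits called 0 to 98 of all 22206 probe sets, so the loss was not particular to these genes.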

How the data were processed

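The authors deposited log2 values per probe set, made with the Transcriptome Analysis Console 4.0.2 by SST-RMA (signal space transformation and robust multi-chip analysis), per the design text; the genome build of the array is not given in the sources used here. Values of 22206 probe sets on 9 arrays were used as deposited, and 19572 had 1 gene symbol. Limma 3.58.1 in R 4.3.3 fitted the 3 group means to all 9 arrays, with Benjamini-Hochberg adjustment over all probe sets and a threshold of 0.05; the code was tested on simulated data. A log2 difference is a difference of group means, n = 3. Like level means the same of 20 bins of mean signal. Named genes were members called in any comparison, the 3 subunits per complex of smallest unadjusted p for ob/ob vehicle against wild type, the 5 for VE against ob/ob vehicle and the 3 for VE against wild type, core subunits, isoform families, up to 2 genes of each other list, and the largest rise and fall per complex; Ndufv3, Uqcrb, Ndufaf6 and the promoter examples were added after their values were seen. The members and lists were chosen with earlier results of these data known, and role groups within complexes after values were seen. Alternatives covered normalization, moderation, array weights, filters, replicate block and leaving out arrays. The submitters' rule (p under 0.05, fold over 1.1) was applied with limma p-values. Promoter sequences are RefSeq's (GRCm38.p6).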

Additional observations from a re-analysis of the deposited data

How the results depend on the processing

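The ob/ob vehicle medians stayed negative in all 5 complexes and over all subunits under every alternative run, but their size followed the normalization. Over all subunits the median was -0.245 after quantile normalization, -0.236 with cyclic loess and -0.235 after removal of the level trend. It was -0.232 after quantile normalization and then level trend removal. Quantile normalization without the second VE array, an alternative chosen after seeing the data, gave a median of -0.249. In the same order it was -0.235, -0.219, -0.221, -0.220 and -0.237 in complex I, -0.456, -0.433, -0.439, -0.443 and -0.462 in complex II, -0.282, -0.258, -0.255, -0.253 and -0.285 in complex III, -0.204, -0.190, -0.190, -0.191 and -0.204 in complex IV, against -0.442 as deposited, and -0.344, -0.359, -0.358, -0.345 and -0.352 in complex V. Centring each array moved complex II to -0.703, and leaving out single arrays moved complex II between -0.666 and -0.566, complex III between -0.693 and -0.477 and complex IV between -0.595 and -0.202, the last without the second ob/ob vehicle array. For ob/ob VE against wild type the quantile, quantile with level trend, and quantile without the second VE array values were -0.074, -0.084 and -0.065 over all subunits, -0.013, -0.025 and -0.029 in complex IV and -0.075, -0.084 and -0.003 in complex V; cyclic loess gave -0.033 in complex IV and -0.120 in complex V, the level trend -0.157 in complex V, and the last of the 3 gave -0.133 in complex I.

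The count of 1 called subunit in ob/ob vehicle against wild type is set here beside the share of all probe sets called alike, 1.27%. It was 6 after quantile normalization (2.84%), cyclic loess (3.64%), level trend removal (3.48%) or quantile normalization and then level trend removal (2.98%). The count was 7 with centring (2.77%), 2 with trend and robust moderation (1.59%) and 3 among probe sets above the median level (3.67%). With array weights it was 33 (16.2%), and with only the compared groups 28 (11.8%). Quantile normalization without the second VE array gave 13 (8.87%), and the submitters' rule gave 33 (20.1%). It was 12 at an adjusted p under 0.1 (5.42%), and 0 to 29 when single arrays were left out (0.00% to 13.4%). The counts of 0 became 11, 1, 1 and 3 for VE against ob/ob vehicle (array weights, without the second VE array, the same after quantile normalization, submitters' rule; 14.9%, 1.81%, 1.88% and 13.3% of all probe sets), and 20, 1 and 23 for VE against wild type (array weights, without the first VE array, submitters' rule; 14.8%, 0.712% and 12.2%). For the F test they became 1 with cyclic loess (2.83%), 3 with the level trend (2.66%), 1 with the replicate block (0.901%), 38 with array weights (28.5%), 2 without the first (2.17%) and 19 without the second VE array (8.67%), 7 after quantile normalization without the second (5.85%), 24 by the submitters' rule (19.0%) and 6 at an adjusted p under 0.1 (3.98%).

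Signs turned for 7 named subunits in ob/ob vehicle against wild type: Atp5b (0.062, 0.061 with the level trend and 0.065 without the second VE array, all after quantile normalization), Atp5h (0.164, 0.163 and 0.176 likewise, 0.153 with cyclic loess, 0.112 with the level trend, -0.453 to 0.057 with single arrays left out), Ndufa4 (0.077, 0.077 and 0.083), Ndufv1 (0.185, 0.184 and 0.189, 0.212 with cyclic loess, 0.235 with the level trend), Ndufs3 (0.005 with the level trend), Cox6b2 (-0.172 to 0.035) and Cox8b (-0.342 to 0.078) with single arrays left out. With single arrays left out Atp5g2 (-0.020 to 0.280) and Ndufa10 (-0.043 to 0.362) turned against ob/ob vehicle, and Cox7a2l turned against wild type (0.284, 0.261 and 0.209 after the quantile settings, 0.246 with cyclic loess, 0.253 with the level trend, 0.264 with array weights, 0.097 without the second VE array). The cause was not tested.

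Whether the replicate numbers pair the samples was not tested. After removal of the group means, correlations of the 9 same-numbered pairs ran from -0.032 to 0.331, and 4 were above 0.1. Those of arrays with different numbers in different groups ran from -0.289 to 0.111. With the replicate block the count in ob/ob vehicle against wild type stayed at 1, Ndufs7, at an adjusted p of 0.0329. With 3 arrays a group, and no detection calls in the values used here, precision is limited by the number of arrays and dim genes may sit at background.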

Other observations

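The pathways that feed or build the chain were also measured. Of 12 measured tricarboxylic acid cycle genes 1 fell in ob/ob vehicle brain in limma, against 0.730% of all probe sets and 1.49% at like level, and the median log2 difference was -0.46 as deposited and -0.16 after quantile normalization. The 1 was Mdh2, the malate dehydrogenase of mitochondria, which read 12.89, 12.31 and 12.49 in wild type, 11.46, 11.50 and 11.38 in ob/ob vehicle and 11.70, 11.64 and 11.36 in VE brain. All obese arrays lay below all wild type arrays, and the ob/ob vehicle difference was -1.12 (SE 0.209, limma adjusted p = 0.0366), or -0.82 after quantile normalization (adjusted p = 0.0989). Of 10 pyruvate dehydrogenase genes 1 fell, against 0.730% of all probe sets and 1.48% at like level. After quantile normalization 0 fell, against 1.13% of all probe sets. The median was -0.43 as deposited, against -0.28 at like level, and -0.20 after quantile normalization. The 1 was Pdk2, a kinase that switches pyruvate dehydrogenase off. It read 12.79, 12.67 and 12.45 in wild type, 11.83, 11.39 and 11.07 in ob/ob vehicle and 11.56, 11.24 and 11.11 in VE brain. Its difference was -1.21 (SE 0.233, limma adjusted p = 0.0366), or -0.90 after quantile normalization (adjusted p = 0.0504). The calls of Mdh2 and Pdk2 ended when any 1 wild type or ob/ob vehicle array was left out, with adjusted p-values of up to 0.186 and 0.196, and that of Pdk2 also without VE array 3. The fits without a wild type or ob/ob vehicle array called 0 to 21 of all 22206 probe sets, and that without VE array 3 called 98.

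Of 76 mitochondrial ribosomal proteins, which make the subunits encoded by mitochondrial DNA, 1 fell, against 0.730% of all probe sets and 1.22% at like level. In 38 every ob/ob vehicle array was below every wild type array, against 17.5% of all probe sets and 25.3% at like level, and in 33 after quantile normalization, against 15.1% and 17.5%. The 1 was Mrpl52, with 6.25, 6.47 and 6.29 in wild type and 5.30, 5.52 and 5.38 in ob/ob vehicle brain, a difference of -0.94 (SE 0.189, limma adjusted p = 0.0401). Its call ended in the same 7 leave-one-out fits as that of Pdk2, with adjusted p-values of up to 0.196. Those fits called 0 to 98 of all 22206 probe sets. Of 14 regulators of mitochondrial biogenesis none passed the test. Their median was -0.35 as deposited, against -0.09 at like level, and -0.27 after quantile normalization. Ppargc1a, a coactivator that drives mitochondrial gene expression, read 13.11, 12.52 and 12.77 in wild type and 12.45, 11.67 and 12.07 in ob/ob vehicle brain, without overlap, a difference of -0.74 (SE 0.255, limma adjusted p = 0.141). None of 13 genes of inner membrane organization, 9 of uncoupling and nucleotide transport and 3 of cytochrome c and Cyc1 passed the test. Of all probe sets 0.730% were called lower and 0.536% higher. The medians of these lists were -0.35, -0.30 and -0.30 as deposited, against -0.305, -0.37 and -0.043 at like level. After quantile normalization they were -0.16, -0.08 and -0.10. Adipocyte markers had a median of 0.07, skeletal muscle markers of 0.14, and the 1 measured red cell marker differed by 0.30.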
